A study of Mus musculus with 12 samples.

Results

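The genes examined were Gdf15, the myostatin gene Mstn, the ligand genes Gdf6, Gdf11, Bmp2, Bmp4, Bmp6 and Bmp10, and the antagonist gene Grem1. They were taken by gene symbol from the deposited values of both diets and are 9 of the 27179 genes there. The hearts came from C57Bl/6J mice, 12 weeks old, fed a diet with 0 kcal% fat (fat-free) or 60 kcal% fat (high-fat). After 4 days on the diet the mice underwent transverse aortic constriction (TAC), a narrowing of the aortic arch against which the left ventricle has to pump, or sham surgery. They stayed on that diet, and the hearts were taken 1 week after surgery for sequencing of mRNA from heart tissue. The 4 groups were TAC on the fat-free diet (n = 3), sham on the fat-free diet (n = 3), TAC on the high-fat diet (n = 3) and sham on the high-fat diet (n = 2, replicates 2 and 3, since replicate 1 was not analysed here). No genetic change is named for any group. Whether every library is a different mouse is not stated in the labels, so p-values measure the spread between libraries, which may be technical.

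These ligands belong to the TGF-beta superfamily, whose dimers bring type I and type II receptor kinases together. BMP2, BMP4, BMP6, BMP10 and GDF6 signal mainly through SMAD1, SMAD5 and SMAD9, and myostatin and GDF11 through SMAD2 and SMAD3. GDF15 is a distant member that circulates as a stress cytokine and acts through the brainstem receptor GFRAL with its partner RET, and injured or overloaded heart muscle is a known source of it. Gremlin, the product of Grem1, binds BMP2 and BMP4 and blocks them.

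Levels are the authors' read counts per gene, normalized between the libraries of 1 diet and rounded, and are called normalized counts. The libraries held between 25906622 and 39699027 normalized counts and between 16541 and 18348 genes with a count. Transcripts of the mitochondrial genome made up 18.1% to 25.3% of the counts in TAC libraries and 26.2% to 32.7% in sham libraries. Libraries of 1 group differed in atrial transcripts. The atrial myosin light chain gene Myl7 stood at 1758, 23 and 75 normalized counts in TAC replicates 1 to 3 and at 9915, 274 and 8426 in sham replicates 1 to 3 on the fat-free diet. On the high-fat diet it stood at 14839, 10 and 6 in TAC replicates 1 to 3 and at 4 and 6 in sham replicates 2 and 3. The 4 libraries above 1000 therefore fall in 3 of the 4 groups. Ventricular markers, 8 muscle genes such as Myh6 and Myl2, summed to between 1000169 and 2339216 in every library, and none of them was at 0.

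RefSeq promoter windows (build GRCm38.p6, from 250 bases before to 50 bases after a start site) were found for 7 of the 9 genes. None was found for Gdf6 and Bmp2. The windows of Gdf15 and Bmp6 are printed because these genes passed the test on both diets, in opposite directions, and that of Bmp4 because it holds the same 6-letter E-box, CACGTG, and passed on neither diet. The Bmp10 window is printed because the gene was read in a few libraries at very unequal levels. Capitals mark CACGTG in the first 3 and the GATA motif AGATAA in the last. All are given 5′ to 3′ on the strand of the gene.
Gdf15 (chr8:70632046-70632345, minus strand): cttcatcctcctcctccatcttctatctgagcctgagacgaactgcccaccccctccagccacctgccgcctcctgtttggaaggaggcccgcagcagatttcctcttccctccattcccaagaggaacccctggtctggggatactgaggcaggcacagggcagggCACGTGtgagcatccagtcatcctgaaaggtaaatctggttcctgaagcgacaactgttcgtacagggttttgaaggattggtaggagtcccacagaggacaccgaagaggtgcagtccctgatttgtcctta
Bmp6 (chr13:38345466-38345765, plus strand): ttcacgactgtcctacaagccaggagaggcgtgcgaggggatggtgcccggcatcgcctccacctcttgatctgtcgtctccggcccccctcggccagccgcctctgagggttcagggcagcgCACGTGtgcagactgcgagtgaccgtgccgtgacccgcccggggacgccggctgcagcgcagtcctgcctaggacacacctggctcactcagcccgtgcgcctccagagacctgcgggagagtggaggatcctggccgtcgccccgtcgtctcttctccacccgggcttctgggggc
Bmp4 (chr14:46390620-46390919, minus strand): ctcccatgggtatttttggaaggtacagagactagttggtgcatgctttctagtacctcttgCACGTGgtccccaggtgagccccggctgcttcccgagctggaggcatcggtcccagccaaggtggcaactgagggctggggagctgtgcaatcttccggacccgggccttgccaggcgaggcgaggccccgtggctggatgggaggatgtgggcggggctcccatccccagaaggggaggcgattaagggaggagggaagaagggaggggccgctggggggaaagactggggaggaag
Bmp10 (chr6:87428744-87429043, plus strand): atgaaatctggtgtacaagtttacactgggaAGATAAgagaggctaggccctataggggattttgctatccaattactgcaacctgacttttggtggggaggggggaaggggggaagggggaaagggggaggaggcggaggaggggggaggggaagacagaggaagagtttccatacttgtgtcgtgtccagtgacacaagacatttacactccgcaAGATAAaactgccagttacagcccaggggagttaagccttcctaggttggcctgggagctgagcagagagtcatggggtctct

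The E-box begins 83 bases before the start site in Gdf15, 127 before it in Bmp6 and 188 before it in Bmp4. It occurs on either strand in 7.15% of the 32851 mouse windows of the same length. Bmp10 holds AGATAA at 219 and at 33 bases before the start site, and 11.2% of all windows hold it. Of the other motifs searched on both strands, TATAAA was found in the Mstn and Gdf11 windows (13.6% of all windows), TGANTCA, the AP-1 motif, in that of Mstn (7.81%) and GGCGCC in that of Grem1 (11.9%). TGATGNAA, the motif of CEBP-ATF dimers (3.97%), and the MEF2 motif (3.69%), were found in none of the 7 genes' windows. A match describes these letters and was not tested as a binding site. The printed Gdf15 window belongs to a RefSeq start 460 bases upstream of the first exon that the deposited annotation lists. The other Gdf15 window, whose start lies 821 bases upstream of that exon, held no match.

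In sham hearts the ligands differed widely in level. Per kilobase of exon, which makes genes comparable, Bmp6 was the highest of the 9 in sham hearts, at 283 ± 70.4 normalized counts on the fat-free diet (SD, n = 3) and 257 ± 5.57 on the high-fat diet (n = 2). Bmp4 came next, at 96.6 ± 36.1 and 88.0 ± 7.45. Gdf15 followed at 24.9 ± 8.45 and 28.6 ± 2.61, and Bmp2 at 21.9 ± 9.35 and 10.5 ± 1.97. On the fat-free diet the ranges of Gdf15 and Bmp2 in sham hearts overlapped, at 15.7 to 32.3 and 11.1 to 28.2 per kilobase, so their order was not resolved. Gdf11, Gdf6 and Mstn had means between 3.54 and 9.76 in both sham groups, and neighbours in their order overlapped.

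After TAC that order changed, and Gdf15 held the highest mean of the 9. It stood at 187 ± 86.4 per kilobase on the fat-free diet and 263 ± 71.2 on the high-fat diet (SD, n = 3 each). Bmp6, at 169 ± 28.3 and 139 ± 17.9, was close to Gdf15 on the fat-free diet, where their ranges overlapped (116 to 283 for Gdf15, 140 to 196 for Bmp6). Their ranges did not overlap on the high-fat diet (195 to 337 for Gdf15, 119 to 151 for Bmp6). Gdf6 stood at 86.8 ± 60.0 and 46.6 ± 36.6 after TAC, in a range that overlapped that of Bmp4 on both diets. Bmp2, Gdf11 and Mstn had means between 2.98 and 19.4. Bmp10 had a mean of 11.1 in fat-free TAC hearts. Its mean of 155 in high-fat TAC hearts ranks above Bmp6, but each mean rests on 1 library and the other 2 were at 0. The diets were normalized apart, so a level on 1 diet is not set against the other.

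**Figure D1:**
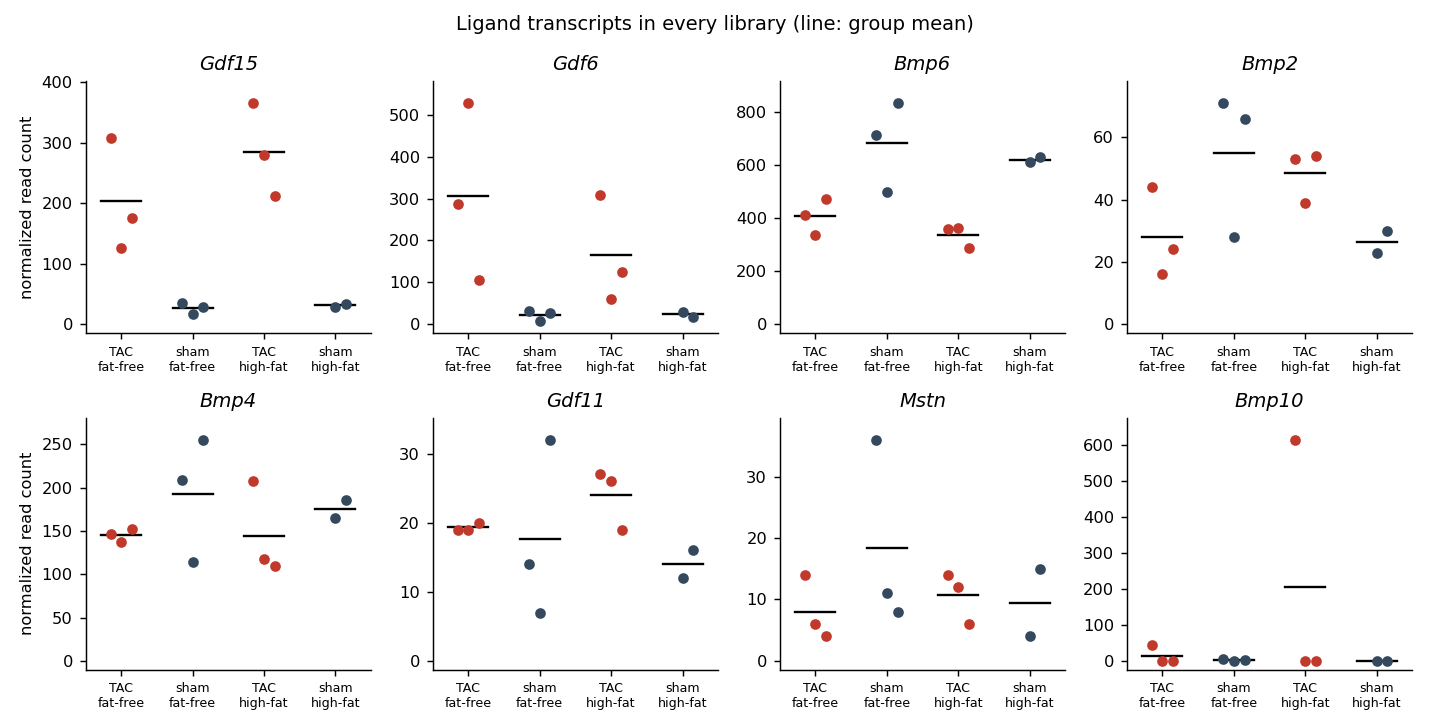
Normalized read count (vertical axes, linear, each with its own scale) of 8 genes in every library of the 4 groups, with points for libraries (red for TAC, dark blue for sham) and lines for group means. Every TAC point of Gdf15 and Gdf6 lies above every sham point of its diet and every TAC point of Bmp6 below, while Bmp10 is carried by TAC replicate 1 of the high-fat diet, at 614.

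The question put to each gene was whether its transcript level differed between TAC and sham hearts within a diet. A gene was tested where it had at least 10 normalized counts in 3 fat-free or 2 high-fat libraries. Of the 9 genes, 7 met this on both diets. Bmp10 and Grem1 did not, and they are described by their values. On the fat-free diet Gdf15 and Gdf6 were higher after TAC and Bmp6 was lower, 3 of the 7 tested, against 24.2% of all 13995 genes tested with limma at an adjusted p under 0.1. On the high-fat diet the same 3 genes passed in the same directions and Bmp2 was higher as well, 4 of 7 against 31.7% of 14274 genes. TAC and sham libraries did not overlap for 3 of the 7 on the fat-free diet, against 37.3% of all genes tested, and for 5 of the 7 on the high-fat diet, against 63.7%. With single libraries left out in turn the number called ran from 2 to 5 on the fat-free diet, highest without sham replicate 2, and from 0 to 4 on the high-fat diet. On the high-fat diet the number fell without either sham library or without TAC replicate 3, and calls among all genes tested fell there too. With 1 sham library out, the lone one left was assumed to vary like the TAC group. Without the 3 fat-free libraries above 1000 Myl7 counts, a split chosen after the data were seen, limma called 0 of the 7 and 0 of all genes on that diet, with 1 sham library left.

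Gdf15, the stress cytokine gene (gene ID 23886, mm10 chr8:70629394-70631635, minus strand, 2 exons), showed the steepest rise relative to its error. It had, on the fat-free diet, 307, 126 and 175 normalized counts in TAC replicates 1 to 3, against 35, 17 and 29 in sham replicates 1 to 3. The lowest TAC library was thus well above the highest sham library, and the TAC libraries differed more among themselves than the sham libraries did. The log2 fold change was 2.82 ± 0.38 (SE), a 7.07-fold higher level, with a limma adjusted p of 0.00571. For the high-fat diet, Gdf15 had 365, 279 and 211 in TAC replicates 1 to 3, against 29 and 33 in sham replicates 2 and 3. Again the groups were far apart, and the 2 sham libraries were nearly level. The log2 fold change was 3.13 ± 0.27, or 8.74-fold, with a limma adjusted p of 0.0169. The authors' deposited table, whose log2 fold changes are shrunken towards 0 and so are not the same quantity, gives 2.23 (adjusted p 3.63e-11) and 3.05 (adjusted p 9.95e-23) for the fat-free and high-fat diets. Without sham replicate 2, which left a lone sham library, the high-fat log2 fold change was 3.04. The call was lost there, as were the other calls on that diet.

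In these bulk hearts, a change in the number of cells of a type and a change in RNA per cell cannot be told apart. Markers of other cell types moved with TAC. The 8 fibroblast markers, among them the collagen genes Col1a1 and Col3a1, summed to between 44569 and 179920 normalized counts in TAC hearts and between 11438 and 20168 in sham hearts on the fat-free diet. On the high-fat diet the sums were 89914 to 349319 in TAC hearts and 16450 to 19558 in sham hearts, and none of these markers was at 0 in any library. Limma called 4 of the 8 higher on the fat-free diet (Col1a1, Col1a2, Col3a1 and the matricellular protein gene Postn) and 5 on the high-fat diet (these and Lum). Pdgfra, Tcf21 and Dpt passed on neither, with log2 fold changes of 0.02, -0.28 and -0.22 for the fat-free diet, and 0.30, 0.49 and 0.69 for the high-fat one. The 8 macrophage markers summed to between 14251 and 22739 in TAC hearts and between 8345 and 10024 in sham hearts on the fat-free diet, and to 11412 to 19025 and 6768 to 8333 on the high-fat diet. The 6 adipocyte markers summed to 11 to 317 in TAC hearts and 490 to 782 in sham hearts on the fat-free diet, where all 5 tested were lower, and to 4 to 1682 in TAC hearts and 2 in each sham heart on the high-fat diet. The 7 smooth muscle and pericyte markers summed to 12301 to 15166 in TAC hearts and 13107 to 15588 in sham hearts on the fat-free diet, and to 11565 to 31500 and 13299 to 14463 on the high-fat diet. The part of these cells in the results for Gdf15 or the other genes was not tested.

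The genes nearest to Gdf15 in profile were Mfap5, which encodes a microfibril protein of the matrix, the mitotic kinesin gene Kif14 and Cd109, whose product is a TGF-beta co-receptor. Likeness was the root-mean-square distance of log2 values over the 11 libraries, among 13105 genes, and the distances were 0.43, 0.43 and 0.45 against a median of 1.56. Mfap5 had 4298, 3134 and 1885 normalized counts in fat-free TAC replicates 1 to 3, against 771, 438 and 566 in sham, so its order of TAC libraries was not that of Gdf15.

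Of the GDF15 receptor pair, the transcript of Ret was read in every heart library and that of Gfral in none. Gfral was at 0 in all 11 libraries. A count of 0 allows up to 3 reads. Taken as 3 normalized counts, that is 0.0756 to 0.116 CPM (counts scaled to the library total) over the libraries, counting error only. In libraries whose reads were scaled up the limit is higher. Ret, the partner kinase, had 175, 160 and 193 normalized counts in fat-free TAC hearts, against 148, 282 and 138 in sham hearts. Ret had 210, 173 and 171 in high-fat TAC hearts, against 212 and 191 in high-fat sham hearts. The groups overlapped on both diets, and neither difference passed the test (log2 fold changes -0.03 and -0.13, limma adjusted p 0.951 and 0.580).

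Stress pathways known to switch on Gdf15 transcription include the ATF4 and CHOP arm of the integrated stress response and p53. The list made for them, which also holds the immediate-early gene Egr1, had calls in both directions. Of its 15 genes tested, 1 was higher and 1, Egr1, lower after TAC on the fat-free diet. On the high-fat diet 3 were higher and 1 lower. Those calls are 13.3% and 26.7% of the list, beside 24.2% and 31.7% of all genes tested. The medians of the list were 0.17 and 0.16 on the log2 scale, beside -0.02 and -0.01 for all genes tested. Trp53, the p53 gene itself, was higher on both diets, by 0.65 ± 0.11 and 0.60 ± 0.12 (limma adjusted p 0.0110 and 0.0453). It had 500, 516 and 457 normalized counts in fat-free TAC hearts, against 329, 300 and 309 in sham hearts. Cdkn1a and Mdm2, genes that p53 drives, passed on neither diet. On the fat-free diet they were at 0.38 and -0.27 (limma adjusted p 0.648 and 0.174). Cdkn1a had 1707, 1839 and 1193 there in TAC hearts, against 843, 644 and 3099 in sham hearts, and overlapped through sham replicate 3. High-fat TAC hearts had 2067, 1202 and 2151 counts of Cdkn1a, against 1017 and 1162, without overlap, as for 63.7% of all genes tested. Mdm2 was lower in every high-fat TAC library than in either sham library. The authors' shrunken log2 fold changes for the high-fat diet were 0.51 for Cdkn1a and -0.17 for Mdm2 (adjusted p 0.111 and 0.294). Ddit3, the CHOP gene, did not pass either (-0.18 on the fat-free diet, limma adjusted p 0.568). Asns, the asparagine synthetase gene that ATF4 drives, was higher on the high-fat diet (1.04 ± 0.35, limma adjusted p 0.0914), with 236, 109 and 205 in TAC hearts and 88 and 81 in sham hearts. Sesn2, a stress-inducible sestrin gene, was also higher there (0.81 ± 0.28, limma adjusted p 0.0952). Cebpb was lower on the high-fat diet (-0.32) and Egr1, which belongs to neither pathway, on the fat-free diet (-0.65). Atf4 stood at 2273, 2913 and 2499 in fat-free TAC hearts and at 2125, 2430 and 2526 in sham hearts, with overlapping groups.

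Gdf6, a BMP-type ligand gene known from joint and skull development (gene ID 242316, chr4:9844372-9862345, plus strand, 2 exons), was also higher after TAC, with a less even rise. Gdf6 in the fat-free libraries had 286, 528 and 106 normalized counts in TAC replicates 1 to 3, against 31, 8 and 26 in sham replicates. The groups did not overlap, and the TAC libraries spread over a wide range. The log2 fold change was 3.68 ± 0.65, or 12.8-fold, with a limma adjusted p of 0.0123. With single libraries left out it ran from 3.11 (without sham replicate 2) to 4.30 (without TAC replicate 3), and the call was kept each time. Gdf6 in the high-fat libraries had 309, 60 and 125 in TAC replicates 1 to 3, against 30 and 18 in sham replicates 2 and 3, a log2 fold change of 2.46 ± 0.68 (limma adjusted p 0.0666). TAC replicate 2 carried the lowest of the high-fat TAC values but the highest of the fat-free ones. The authors' deposited table, again with shrunken fold changes, gives 1.57 (adjusted p 3.11e-04) and 1.96 (adjusted p 1.39e-04) for the fat-free and high-fat diets. The high-fat call was lost without either sham library or without TAC replicate 3 (over all libraries left out in turn 1.85 to 3.03, limma adjusted p 0.0260 to 0.350), and with no filter or quantile normalization (limma adjusted p 0.106 each).

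Gdf6 and Gdf15 were both higher after TAC, but their libraries were not in the same order. Within the fat-free TAC group Gdf15 was highest in replicate 1 and Gdf6 in replicate 2. The genes nearest to Gdf6 were Nrip3, Adam12 and Nxpe5, at distances of 0.52, 0.62 and 0.63 against a median of 1.81. Adam12 encodes a membrane metalloprotease. It had 165, 221 and 57 normalized counts in fat-free TAC hearts, against 4, 5 and 13 in sham hearts. Within TAC, replicate 2 was highest and replicate 3 lowest as for Gdf6. Adam12 was chosen for likeness over these same values, so the shared order is no separate result. The 6 epicardial and mesothelial markers summed to 644, 998 and 318 in fat-free TAC replicates 1 to 3, against 577, 376 and 732 in sham replicates. Their sums were 2771, 177 and 287 in high-fat TAC replicates 1 to 3, against 179 and 238 in sham replicates 2 and 3. Within each TAC group these sums were in the order of Gdf6, but within neither sham group. Their TAC and sham ranges overlapped on both diets. Sums of the 8 atrial markers, in which the natriuretic peptide gene Nppa dominates after TAC, were in that order within TAC too. They were 55373, 67199 and 40213 in fat-free TAC replicates 1 to 3 and 500813, 35083 and 107656 in high-fat ones. Of these markers Nppa alone had that order on the fat-free diet, and Nppa, Myl4 and Dkk3 had it on the high-fat diet. On the high-fat diet alone, smooth muscle (31500, 11565 and 19438), fibroblast (349319, 89914 and 138309) and macrophage sums (19025, 11412 and 16348) also had that order. The part of these cells in the Gdf6 values was not tested.

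Bmp6, the ligand gene known for its endothelial source and its role in iron balance (gene ID 12161, chr13:38345716-38499728, plus strand, 7 exons), was lower after TAC. Bmp6 in the fat-free libraries had 414, 337 and 473 normalized counts in TAC replicates 1 to 3, against 714, 500 and 835 in sham replicates. The highest TAC library lay just below the lowest sham library. The log2 fold change was -0.72 ± 0.21, a level 0.606 times that of sham, with a limma adjusted p of 0.0509. Bmp6 on the high-fat diet had 358, 363 and 286 in TAC replicates 1 to 3, against 611 and 630 in sham replicates 2 and 3, and the groups were clearly apart. The log2 fold change was -0.89 ± 0.15, or 0.539 times, with a limma adjusted p of 0.0358. In the authors' deposited table the values are -0.69 (adjusted p 0.00604) and -0.93 (adjusted p 7.73e-07) for the fat-free and high-fat diets. Its own calls at an adjusted p under 0.1 were Gdf15, Gdf6 and Bmp6 on the fat-free diet, where it called 24.2% of genes, and these and Bmp2 on the high-fat diet, where it called 37.5%.

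The Bmp6 call depended on more settings than that of Gdf15. On the fat-free diet it was lost with scaling by library size alone (-0.58, limma adjusted p 0.116), with log2 Myl7 as a covariate (-0.42, limma adjusted p 0.229), and without either of sham replicates 1 and 3 or of TAC replicates 1 and 2 (over all libraries left out in turn -0.93 to -0.56). It was also lost, at -0.32 (limma adjusted p 0.565), without the 3 fat-free libraries above 1000 Myl7 counts. On the high-fat diet it was lost with library size alone (-0.47, limma adjusted p 0.105) and without either sham library or without TAC replicate 3 (over all libraries left out in turn -0.95 to -0.78). Bmp6 kept its negative sign under every one of these settings. Endothelial markers, 8 genes such as Pecam1 and Kdr, summed to 21335 to 27330 in TAC hearts and 19533 to 24586 in sham hearts on the fat-free diet, and to 24922 to 31499 and 24093 to 24959 on the high-fat diet. The TAC and sham ranges of these sums overlapped on both diets. The ventricular sums were 1621087 to 2004035 in TAC hearts and 1859658 to 2109035 in sham hearts on the fat-free diet, and 1000169 to 1708673 and 2217594 to 2339216 on the high-fat diet. Their part in the Bmp6 result was not tested.

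Hjv, which encodes hemojuvelin, the BMP co-receptor that works with BMP6 in iron sensing, was lower too. It had 5812, 5561 and 5588 normalized counts in fat-free TAC hearts, against 7380, 9213 and 7030 in sham hearts (-0.47 ± 0.11, limma adjusted p 0.0326). Hjv had 4813, 7131 and 6048 in high-fat TAC hearts, against 10289 and 9823 in high-fat sham hearts (-0.76 ± 0.18, limma adjusted p 0.0541). The genes nearest to Bmp6 in profile were the calcium pump gene Atp2a3, the histone demethylase gene Kdm6b and Dcaf4, at distances of 0.12, 0.15 and 0.15 against a median of 0.49. Atp2a3 had 367, 255 and 340 in fat-free TAC hearts, against 522, 353 and 618 in sham hearts. Its order of libraries was that of Bmp6 within sham but not within TAC. Atp2a3 was chosen for likeness over these same values, so a shared order is no separate result.

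**Figure D2:**
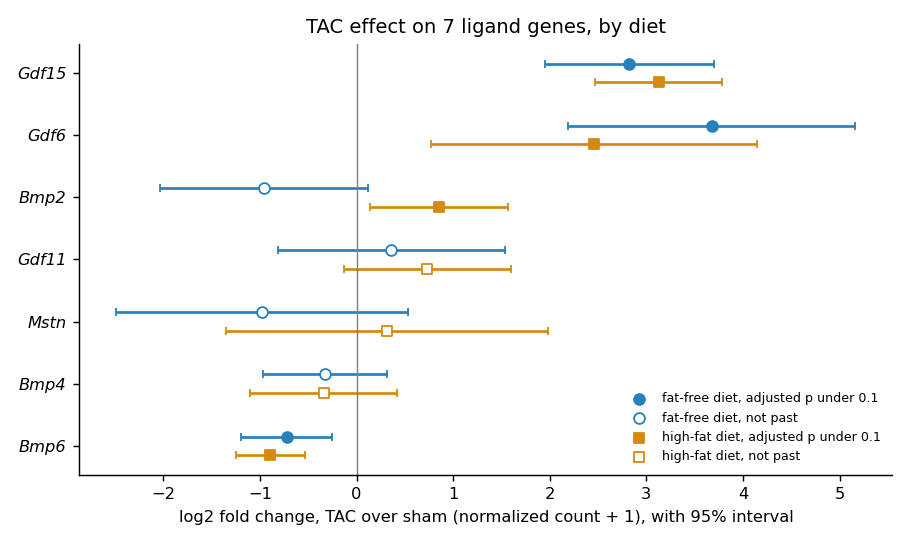
Log2 fold change of TAC over sham on normalized counts plus 1 (horizontal axis) for the 7 genes tested, with 95% intervals from limma, circles for the fat-free and squares for the high-fat diet, filled where the adjusted p was under 0.1. Gdf15 and Gdf6 lie to the right and Bmp6 to the left of 0 on both diets, while the Bmp2 estimates lie on opposite sides, at -0.96 and 0.85.

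Bmp2, a ligand gene of the endocardial cushions and of bone (gene ID 12156, chr2:133553199-133562885, plus strand, 3 exons), was the gene whose estimates differed most between the diets. Bmp2 in the fat-free libraries had 44, 16 and 24 normalized counts in TAC replicates 1 to 3, against 71, 28 and 66 in sham replicates. The groups overlapped through TAC replicate 1 and sham replicate 2, and the difference did not pass (-0.96 ± 0.47, limma adjusted p 0.201). It passed as lower with quantile normalization (-1.19, limma adjusted p 0.0818) and without sham replicate 2 (-1.38, limma adjusted p 0.0919), and in 1 further alternative of 15. Bmp2 on the high-fat diet had 53, 39 and 54 in TAC replicates 1 to 3, against 23 and 30 in sham replicates 2 and 3. These groups were apart, and the level was 1.80-fold higher (0.85 ± 0.29, limma adjusted p 0.0919). The authors' deposited table gives -0.67 (adjusted p 0.173) and 0.89 (adjusted p 0.0341) for the fat-free and high-fat diets.

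The test of that diet difference itself, high-fat minus fat-free, gave 1.81 ± 0.63 for Bmp2 (95% interval 0.41 to 3.20). Its unadjusted p was 0.0161 and its limma adjusted p over 14408 genes was 0.789, so it failed the correction. The high-fat call of Bmp2 was lost with no filter, with quantile normalization (0.36, limma adjusted p 0.347), with log2 Myl7 as a covariate, with all libraries in one fit (limma adjusted p 0.184), and when any high-fat library but TAC replicate 2 was left out (over all libraries left out in turn 0.67 to 1.03). The fat-free estimate was 0.04 with log2 Myl7 as a covariate. Fat-free sham replicates 1 and 3, the 2 sham libraries with high Myl7, were also those with high Bmp2. The part of atrial tissue in this was not tested. Negr1, Omd and the endothelial connexin gene Gja4 were nearest to Bmp2 in profile, at distances of 0.28, 0.33 and 0.36 against a median of 0.70.

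Bmp4, a widely used BMP ligand gene (gene ID 12159, chr14:46383520-46390599, minus strand, 4 exons), did not pass the test on either diet. It had 146, 137 and 152 normalized counts in fat-free TAC hearts, against 209, 114 and 255 in sham hearts (-0.33 ± 0.28, 95% interval -0.97 to 0.31, limma adjusted p 0.449). Bmp4 had 207, 117 and 109 in high-fat TAC hearts, against 165 and 186 in high-fat sham hearts (-0.34 ± 0.31, 95% interval -1.10 to 0.42, limma adjusted p 0.440). The groups overlapped in both cases. Leaving out 1 library could bring a call of a lower level, without fat-free sham replicate 2 (-0.67, limma adjusted p 0.0556) or without high-fat TAC replicate 1 (-0.63, limma adjusted p 0.0380). The high-fat estimate also passed with log2 Myl7 as a covariate (-0.68, limma adjusted p 0.0368). Over both diets Bmp4 was -0.34 ± 0.23 (limma adjusted p 0.251) and passed in 5 of 19 alternatives. A gene listed on the opposite strand, Gm15217, overlaps Bmp4, and the strand setting of the counting is not given in the sources used here.

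Gdf11, a close relative of myostatin that patterns the body axis (gene ID 14561, chr10:128884546-128891718, minus strand, 3 exons), was read at low levels. It had 19, 19 and 20 normalized counts in fat-free TAC hearts, against 14, 7 and 32 in sham hearts (0.36 ± 0.51, limma adjusted p 0.663). The TAC libraries were almost equal and lay inside the range of the sham libraries. Gdf11 had 27, 26 and 19 in high-fat TAC hearts, against 12 and 16 in high-fat sham hearts. There the groups did not overlap, as held for 63.7% of all genes tested on that diet, but the difference did not pass (0.73 ± 0.35, 95% interval -0.13 to 1.60, limma adjusted p 0.174). With library size alone it passed (1.13, limma adjusted p 0.0767).

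Mstn, whose product restrains muscle growth and is made mainly in skeletal muscle (gene ID 17700, chr1:53061663-53068079, plus strand, 3 exons), was close to the lower limit of what could be tested. It had 14, 6 and 4 normalized counts in fat-free TAC hearts, against 36, 11 and 8 in sham hearts (-0.98 ± 0.66, 95% interval -2.49 to 0.53, limma adjusted p 0.341). Mstn had 14, 12 and 6 in high-fat TAC hearts, against 4 and 15 in high-fat sham hearts (0.31 ± 0.68, 95% interval -1.36 to 1.98, limma adjusted p 0.751). The groups overlapped on both diets. Myh4, a fast myosin gene that defines skeletal muscle, had at most 1 normalized count in any library. Ckm, the muscle creatine kinase gene that heart muscle also expresses, stood between 23438 and 89724. Tnnt3, the fast skeletal troponin T gene, had 100, 71 and 31 in fat-free TAC hearts, against 10, 8 and 2 in sham hearts, and 2132, 93 and 106 in high-fat TAC hearts, against 6 and 11 in sham hearts. It was called higher on both diets (log2 fold changes 3.20 and 4.92, limma adjusted p 0.0157 and 0.0685), and the other 3 skeletal markers tested passed on neither. Tnni2, the fast troponin I gene, had 185 in high-fat TAC replicate 1 and between 25 and 61 in the other 10 libraries. The sums of the 8 skeletal muscle markers, in which Ckm dominates, were 55417 to 89821 in TAC hearts and 57494 to 77169 in sham hearts on the fat-free diet, and 25779 to 51910 and 68686 to 74032 on the high-fat diet. Their part in the Mstn values was not tested.

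Bmp10, the ligand gene of atrial muscle that drives growth of the trabeculae in the embryo (gene ID 12154, chr6:87429002-87434512, plus strand, 2 exons), was read mainly in 2 libraries. It had 44, 0 and 0 normalized counts in fat-free TAC replicates 1 to 3, against 5, 0 and 3 in sham replicates. Bmp10 in the high-fat libraries had 614, 0 and 0 in TAC replicates 1 to 3, against 0 and 0 in sham replicates 2 and 3. TAC replicate 1 held most of the gene's counts on each diet, and the other 4 TAC libraries were at 0. No test was made and no fold is given.

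The 4 libraries with any Bmp10 were the 4 with Myl7 above 1000, but the levels were not in proportion. Sln, the sarcolipin gene of atrial muscle, had 433, 2 and 31 normalized counts in fat-free TAC hearts, against 3543, 95 and 2396 in sham hearts. Sln had 8998, 0 and 0 in high-fat TAC hearts, against 0 and 10 in high-fat sham hearts. Fat-free sham replicates 1 and 3 thus had several times the Sln and Myl7 of fat-free TAC replicate 1 and far less Bmp10. Nppa, the natriuretic peptide gene that loaded ventricles also switch on, stood at 47350, 66419 and 39003 in fat-free TAC hearts, against 18967, 4981 and 11302 in sham hearts. High-fat TAC hearts had 402581, 33860 and 106638 counts of Nppa, against 505 and 1220 in high-fat sham hearts. Myl4, a further atrial light chain gene, had 61411 in high-fat TAC replicate 1 and between 42 and 112 in the other 4 high-fat libraries. The 8 atrial markers summed to 40213 to 67199 in TAC and 6972 to 54078 in sham hearts on the fat-free diet. On the high-fat diet the sums were 35083 to 500813 and 1415 to 2264. Nr2f2, Stard10 and Sbk2 of that list were called lower on the fat-free diet (-0.46, -1.74 and -2.17), Nppa was called higher (2.28), and Dkk3 did not pass (-1.03). How much atrial tissue each heart sample held was not measured, and its part in the Bmp10 values was not tested.

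**Figure D3:**
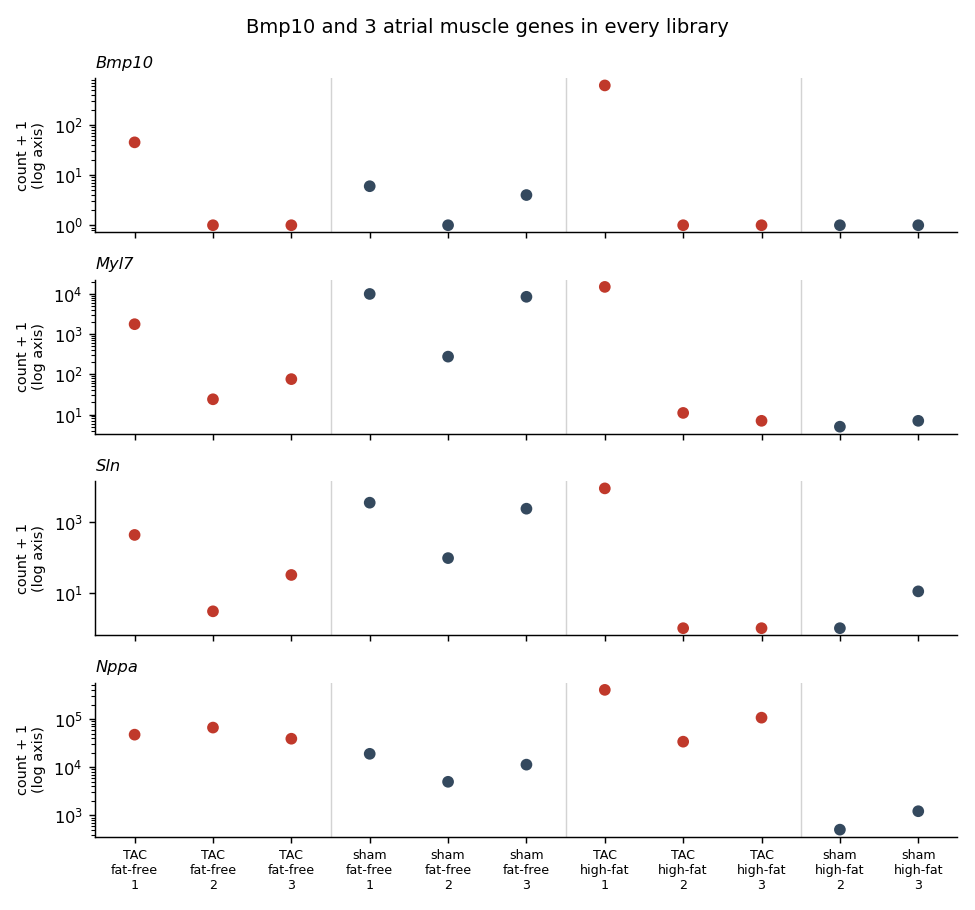
Normalized read count plus 1 (vertical axes, logarithmic, so that a count of 0 is drawn at 1) of Bmp10 and the atrial genes Myl7, Sln and Nppa in each of the 11 libraries, red for TAC and dark blue for sham. Bmp10 is high in high-fat TAC replicate 1 (614) and next in fat-free TAC replicate 1 (44), while Myl7 is also high in fat-free sham replicates 1 and 3 (9915 and 8426).

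Grem1, the antagonist gene (gene ID 23892, chr2:113748675-113758648, minus strand, 2 exons), was at 0 in all 11 libraries, under the same limit as Gfral. A gene without a symbol is listed on the opposite strand over Grem1, and as for Bmp4 the strand setting of the counting is not known here. Between the listed transcripts of the 9 genes, the longest run of identical bases was 19, and between Mstn and Gdf11 it was 12, shorter than a usual sequencing read.

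Over both diets together, fitted as the mean of the within-diet effects, Gdf15, Gdf6 and Bmp6 passed the test and the other 4 did not, 3 of 7 against 53% of 14408 genes. The log2 fold changes were 2.97 ± 0.27 for Gdf15 (limma adjusted p 9.56e-05), 3.07 ± 0.54 for Gdf6 (limma adjusted p 0.00215) and -0.81 ± 0.14 for Bmp6 (limma adjusted p 0.00228). Gdf15 and Gdf6 were higher and Bmp6 lower in all 6 TAC libraries than in every sham library of their diet. TAC and sham groups did not overlap for 37.3% (fat-free) and 63.7% (high-fat) of all genes tested. The test of whether the TAC effect differed between the diets called none of the 7, and 0% of all 14408 genes, although 651 genes had an unadjusted p under 0.05. The differences, high-fat minus fat-free, were 0.30 ± 0.53 for Gdf15 (95% interval -0.87 to 1.48), -1.22 ± 1.07 for Gdf6 (-3.60 to 1.16) and -0.17 ± 0.29 for Bmp6 (-0.80 to 0.47). A p that misses the threshold does not show that the diets act alike, and for Gdf6 the interval is wide.

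Receptor genes through which these ligands act were called in both directions. Of 14 type I, type II and co-receptor genes tested, 1 was higher and 3 were lower on the fat-free diet, and 1 was higher and 1 lower on the high-fat diet, with medians of -0.05 and -0.03. Those calls are 28.6% and 14.3% of the list, beside 24.2% and 31.7% of all genes tested. Beside Hjv, the fat-free changes were Acvrl1, the endothelial receptor gene for BMP10 (0.32), the co-receptor gene Rgma (-0.39) and Tgfbr3, the betaglycan gene (-0.45). Acvr1, a BMP type I receptor gene, was higher on the high-fat diet (0.72 ± 0.17, limma adjusted p 0.0528).

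Smad1, the transducer of BMP signals, was the SMAD gene that was higher on both diets. It had 607, 602 and 637 normalized counts in fat-free TAC hearts, against 342, 349 and 381 in sham hearts (0.78 ± 0.10, limma adjusted p 0.00528). Smad1 had 677, 605 and 758 in high-fat TAC hearts, against 447 and 439 in high-fat sham hearts (0.61 ± 0.13, limma adjusted p 0.0469). The groups were well apart both times. Of the 13 SMAD and SMAD regulator genes tested, 1 was higher and none lower on the fat-free diet. On the high-fat diet 3 were higher and none lower, and the medians were 0.08 and 0.04. These calls make up 7.69% and 23.1% of the list, beside 24.2% and 31.7% of all genes tested. The other 2 high-fat calls were Smurf2, a ubiquitin ligase gene of the pathway (0.42), and the SMAD repressor gene Skil (0.62).

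Genes that BMP signals are known to induce moved both ways. On the fat-free diet 1 of 13 tested was higher, Atoh8 (0.53), and 1 lower, Msx2 (-1.56). On the high-fat diet 2 of 14 were higher, the homeobox gene Msx1 (0.73) and Runx2, a regulator of bone formation (2.83-fold, limma adjusted p 0.0485), and 2 lower. Id1, a direct BMP target gene, was lower. It had 814, 902 and 814 normalized counts in high-fat TAC hearts, against 1220 and 1336 in sham hearts (-0.60 ± 0.10, limma adjusted p 0.0376). On the fat-free diet Id1 had 1241, 1386 and 1601 in TAC hearts, against 1688, 1589 and 1954 in sham hearts, which overlapped and did not pass (-0.31 ± 0.12, limma adjusted p 0.128). Hey1 was also lower on the high-fat diet (-0.73). The list's medians were -0.08 and 0.42 on the fat-free and high-fat diets. Its calls make up 15.4% and 28.6% of it, beside 24.2% and 31.7% of all genes tested. Id2 and Id3 passed on neither diet, at 0.24 and 0.11 on the fat-free diet and 0.94 and 0.23 on the high-fat diet (limma adjusted p 0.142 to 0.567).

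Among secreted antagonists and binding proteins, the largest rises were those of follistatin-like genes. Of 15 tested on the fat-free diet 3 were higher and 1 lower, and of 16 on the high-fat diet 3 were higher and none lower. The medians were -0.04 and 0.80. The share called was 26.7% and 18.8%, beside 24.2% and 31.7% of all genes tested. Fstl3, whose product binds activins and myostatin, had 505, 692 and 260 normalized counts in fat-free TAC hearts, against 182, 115 and 127 in sham hearts (1.69 ± 0.34, limma adjusted p 0.0190). Fstl3 had 920, 349 and 449 in high-fat TAC hearts, against 96 and 126 in high-fat sham hearts (2.24 ± 0.42, limma adjusted p 0.0395). Fstl1, a secreted glycoprotein gene of fibroblasts and muscle, was higher by 2.22 ± 0.31 and 2.87 ± 0.50 (limma adjusted p 0.00641 and 0.0376). The others were Kcp on the fat-free diet (1.01) and Nbl1 on the high-fat diet (1.17). Sost, the sclerostin gene, was called lower on the fat-free diet (-2.90, limma adjusted p 0.0786), although its groups overlapped. It had 3, 3 and 12 in TAC hearts, against 116, 8 and 81 in sham hearts, and the 2 high sham values are again the libraries with high Myl7. Fst, the follistatin gene, passed on neither diet (-0.04 and 2.15, limma adjusted p 0.977 and 0.173).

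Of the other BMP, GDF and activin ligand genes, 22 listed and 8 or 9 tested, Lefty1 was higher on the fat-free diet (0.64, limma adjusted p 0.0939), and Inhba and Inhbb, which encode activin subunits, on the high-fat diet. Inhba had 69, 131 and 24 normalized counts in high-fat TAC hearts, against 2 and 7 in sham hearts (3.65 ± 0.80, limma adjusted p 0.0491). Inhba in the fat-free libraries had 104, 21 and 18 in TAC hearts, against 46, 3 and 26 in sham hearts, and these overlapped (1.04 ± 0.98, limma adjusted p 0.502). Inhbb had 217, 129 and 143 in high-fat TAC hearts, against 69 and 52 in sham hearts (1.39 ± 0.29, limma adjusted p 0.0444). Bmp1, the metalloprotease gene whose product frees myostatin and trims procollagen, was higher on both diets (1.04 ± 0.21 and 1.26 ± 0.39, limma adjusted p 0.0188 and 0.0774). None of the other 6 listed protease genes passed as higher, and Pcsk6 (-0.57) and Tll2 (-1.76) were lower on the high-fat diet. The medians were 0.01 and 0.47 for the other ligands and 0.11 and 0.33 for the proteases on the fat-free and high-fat diets. Calls made up 12.5% and 22.2% of the ligands and 14.3% and 42.9% of the proteases, beside 24.2% and 31.7% of all genes.

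**Figure D4:**
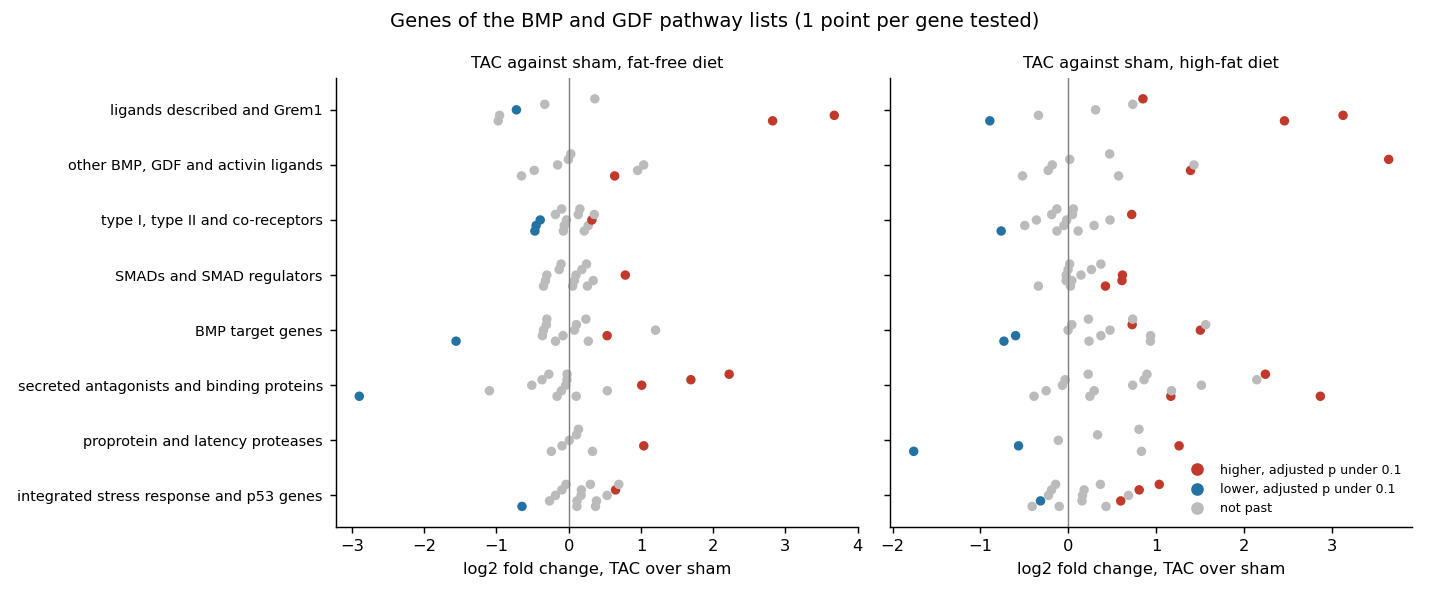
Log2 fold change of TAC over sham (horizontal axes) for every tested gene of 8 lists (rows), 1 point per gene, on the fat-free diet (left) and the high-fat diet (right), red where higher, blue where lower and grey where the adjusted p was 0.1 or more. The largest rises are those of Gdf6 (3.68) and Gdf15 (2.82) on the fat-free diet and of Inhba (3.65) and Gdf15 (3.13) on the high-fat diet.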

How the data were processed

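Libraries were made from heart RNA with a stranded mRNA kit, per the labels' protocols. Per the submitters' processing notes, the tools were STAR, Subread, featureCounts and DESeq2 on build mm10, with no versions or settings. The deposited values per library are a score, namely read counts that the authors had scaled by library, each diet apart, and rounded. This was read from the values, since some low whole numbers never occur in 4 sham libraries, so they were treated as normalized values and not as raw counts. The authors' deposited fold changes are in log2 and shrunken, per the file headers. The authors deposited p-values that are adjusted, from their own DESeq2 run at an FDR of 10%, per the labels. The labels list 12 samples, of which 11 had a column. Exon lengths and coordinates are those of the deposited annotation.

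The test was limma 3.58.1 (R 4.3.3, tables read with data.table release 1.17.8) on log2 of the normalized count plus 1 over all genes with at least 10 in 3 (fat-free) or 2 (high-fat) libraries, with a mean-variance trend and a two-sided Benjamini-Hochberg adjusted p under 0.1. Such fold changes understate the change of low genes. Each diet was fitted on its own, and the difference and the mean of the diets over all 11 libraries for genes tested on either diet. The genes, lists and tests were chosen with earlier results of these data known. Genes named from each of the 8 pathway lists were up to 4 of smallest adjusted p past the threshold on either diet, plus Gfral, Ret, Id1 to Id3, Fst and Inhba, with Myl7, Myl4, Sln and Nppa beside Bmp10, Ckm and Myh4 beside Mstn, and the 3 nearest genes in profile (at least 20 normalized counts on average) for each of the 9 genes that passed. Atf4, Ddit3 as CHOP, Col1a1, Col1a2, Col3a1, Postn, Lum, Pdgfra, Tcf21, Dpt, Tnnt3, Tnni2, Pecam1, Kdr, Myh6, Myl2 and Gm15217 were named in addition, after their values were seen. Cdkn1a, Mdm2, Nr2f2, Stard10, Sbk2 and Dkk3 were likewise named after their values were seen. Hjv is listed under another symbol and was matched by gene ID. All 9 marker lists are given beside the results as sums over their genes. Promoter windows were read from RefSeq. Alternatives were the pseudocount, the filter, the scaling, a replicate block, Myl7 as a covariate, 1 fit for all libraries, and each library left out. The script was tested on simulated counts. Summaries and figures were made with Python 3.11.15, pandas 2.3.3, numpy 2.4.6 and matplotlib 3.10.9. No 2 libraries agreed within sampling noise.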

Additional observations from a re-analysis of the deposited data

Results flagged for a closer look

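Bmp10 was too low for the test in most libraries, so its reads stand outside the comparisons, and 2 TAC libraries were above every sham library of their diet. TAC replicate 1 on the high-fat diet had 614 normalized counts, against 0 in both sham libraries. TAC replicate 1 on the fat-free diet had 44, against at most 5 in the sham libraries. The other 4 TAC libraries had 0. Both libraries also had Myl7 above 1000 normalized counts, as had fat-free sham replicates 1 and 3, and the part of atrial tissue was not tested. Groups of 2 or 3 libraries were not searched for outlying samples, and no gene's TAC effect passed the test of a difference between the diets.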

How the results depend on the processing

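Of 158 alternatives over the 10 gene results past the threshold, 130 kept direction and call, 28 lost the call and 0 changed sign. Of 311 alternatives over the 18 results not past it, 17 passed and 28 turned sign, and for those the cause was not tested. The number of the 7 genes called on the fat-free diet was 3, ran from 2 to 5 with single libraries left out, and was 0 without the 3 libraries above 1000 normalized counts of Myl7, a split chosen after seeing the data. That left 1 sham and 2 TAC libraries, in which limma called no gene at all, and Gdf15 (3.05, limma adjusted p 0.276) and Gdf6 (4.72, limma adjusted p 0.307) kept their direction, as did Bmp6 (-0.32, limma adjusted p 0.565). On the high-fat diet the number was 4, was 2 with no filter and 2 with quantile normalization, and ran from 0 to 4 with single libraries left out, where a lone sham library was assumed to vary like the others.

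Estimates that turned sign were as follows. With log2 Myl7 as a covariate Bmp2 was 0.036 and Bmp4 0.072 on the fat-free diet, and the diet differences were -0.54 for Gdf15 and -0.14 for Gdf11. Without the libraries high in Myl7, Bmp4 was 0.34 on the fat-free diet, the diet differences were -0.12 for Gdf15 and -0.71 for Gdf11, and Bmp2 was 0.14 over both diets. With library size alone Bmp4 was 0.077 on the high-fat diet, the differences were 0.27 for Bmp4 and 0.11 for Bmp6, and Bmp2 was 0.22 over both diets. With quantile normalization Mstn was -0.19 on the high-fat diet. With single libraries left out, Gdf11 ran from -0.13 to 0.89 on the fat-free diet and Mstn from -0.53 to 1.15 on the high-fat diet. The differences ran from -0.30 to 0.33 for Bmp4, from -0.33 to 0.040 for Bmp6 and from -0.16 to 0.86 for Gdf11, and over both diets Bmp2 ran from -0.26 to 0.11 and Mstn from -0.75 to 0.087.

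Library size alone moved the median of all genes to 0.13 (fat-free) and 0.40 (high-fat). It called 3470 genes, 2766 of them higher, against 3383 and 1983 on the fat-free diet, and 6849, 6291 of them higher, against 4519 and 2410 on the high-fat diet. Over both diets it called 8619, 7329 of them higher, against 7635 and 3820. All genes called numbered 2814 on the high-fat diet with no filter. With single fat-free libraries left out they numbered 1852 (sham replicate 1), 2010 (TAC replicate 1) and 1443 (TAC replicate 2), and with single high-fat ones 0 without sham replicate 2, 129 without sham replicate 3 and 154 without TAC replicate 3.

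Whether replicate numbers pair the samples could not be decided. Deviations from the group mean of same-numbered libraries correlated at 0.44, 0.14 and -0.16 on the fat-free diet. Those of unlike numbers there ran from -0.44 to 0.34. On the high-fat diet the same-numbered values were 0.15 and -0.12. With 2 sham libraries there, their deviations mirror each other, so these values cannot show or exclude pairing. With the replicate number as a block, 4 of the 7 genes were called on the fat-free diet (3322 of all genes), where Bmp2 was gained (-0.96, limma adjusted p 0.0785), 5 on the high-fat diet (6102), where Bmp4 was gained (-0.63, limma adjusted p 0.0346), 4 over both diets and 0 for the difference. Genes near 10 normalized counts, Mstn and Gdf11 here, rest on few reads, so small differences in them were not detectable at this depth.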
